A study of Mus musculus with 4 samples.

Results

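Interferon-stimulated genes are the genes that cells switch on after an interferon binds its receptor. The account covers 49 of them, named in a list that runs from sensors of viral RNA and transcription factors to antiviral effectors, antigen-processing proteins and surface ligands. Probe sets with a single gene symbol that matched the list gave a value for 46 of the 49, out of 22180 genes with a value in all. Gbp2 and Dtx3l were present only on probe sets that carry a further gene symbol, and Ifi44 was not analysed here.

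Type I interferon binds a receptor whose kinases phosphorylate STAT proteins. A complex that holds STAT2 and IRF9 enters the nucleus and binds the interferon-stimulated response element (ISRE) in promoters, while the response to interferon gamma acts through the gamma-activated site (GAS). Hepatocytes carry these receptors, and so do the Kupffer cells (liver macrophages) and sinusoidal endothelial cells that can remain in a hepatocyte preparation.

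Expression was measured on whole-transcript arrays in primary hepatocytes of 2-month-old male mice, either lacking Chrebp (KO, gene Mlxipl) or wild type (WT). Chrebp encodes a sugar-responsive transcription factor, and the labels state neither which part of the gene was deleted nor whether the deletion was limited to the liver. The groups were KO hepatocytes with 25 mM fructose, KO hepatocytes without it (control), WT hepatocytes with 25 mM fructose and WT control hepatocytes, each kept 16 h in serum-free medium. Each group was measured on 1 array, so no difference below has a replicate check, no test could be made, and all statements of higher or lower refer to these 4 arrays. The labels do not say how many animals gave the cells of an array.

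Values are deposited log2 levels per probe set. A background level of 4.76 was taken from olfactory receptor genes, and between 10368 and 10447 genes lay above it on each array. A fold is given as "at least" where the dimmer array lay below this level. Mlxipl had log2 levels of 7.37 in KO fructose and 7.42 in KO control, against 8.43 in WT fructose and 8.08 in WT control, so its probe set was lower on both KO arrays but far above background there. Hepatocyte markers, among them Alb and Ttr, were above background for 11 of 12 genes on every array.

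Promoters of 36 of the 46 genes were in the RefSeq promoter table (build GRCm38.p6), and the 250 bases before the start of each were searched on both strands. The ISRE was searched as GAAA, any 2 bases, then GAAA (TTTC, any 2 bases, then TTTC on the other strand), and the GAS as TTCNNNGAA, which is its own reverse complement. A match of one motif may overlap a match of the other. An ISRE was found in 13 of the 36 genes (36.1%), against 3.46% of the 27025 genes of the table. A GAS was found in 8 (22.2%), against 8.13% of the table's genes, and 2 genes, Bst2 and Igtp, held both. Such a match describes the letters and is not evidence of binding. The 5 promoters below belong to the genes with an ISRE match and the largest KO minus WT difference in control medium. They are written in the direction of the gene, with the ISRE matches in capitals.
Ifi205, chr1:174031756-174032005, minus strand: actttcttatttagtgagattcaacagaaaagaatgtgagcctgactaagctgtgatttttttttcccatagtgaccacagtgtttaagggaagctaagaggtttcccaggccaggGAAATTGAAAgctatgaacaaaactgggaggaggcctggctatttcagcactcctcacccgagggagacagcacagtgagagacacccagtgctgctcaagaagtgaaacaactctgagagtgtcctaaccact
Oas3, chr5:120777660-120777909, minus strand: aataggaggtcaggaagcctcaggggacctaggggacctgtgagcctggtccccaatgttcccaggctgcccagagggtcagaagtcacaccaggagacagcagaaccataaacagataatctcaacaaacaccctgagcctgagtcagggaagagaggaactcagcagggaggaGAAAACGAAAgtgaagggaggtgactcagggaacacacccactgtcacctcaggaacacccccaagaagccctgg
Rsad2, chr12:26456453-26456702, minus strand: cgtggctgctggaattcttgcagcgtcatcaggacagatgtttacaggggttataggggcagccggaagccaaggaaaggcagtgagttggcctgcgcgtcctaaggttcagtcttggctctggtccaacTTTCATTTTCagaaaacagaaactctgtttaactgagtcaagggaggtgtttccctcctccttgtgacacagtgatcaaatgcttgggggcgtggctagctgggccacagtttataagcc
Ifit1, chr19:34640639-34640888, plus strand: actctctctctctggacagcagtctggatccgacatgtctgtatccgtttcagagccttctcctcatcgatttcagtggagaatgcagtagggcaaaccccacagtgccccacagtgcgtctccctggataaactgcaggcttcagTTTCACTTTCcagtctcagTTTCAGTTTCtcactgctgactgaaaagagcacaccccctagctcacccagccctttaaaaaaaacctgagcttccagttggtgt
Ifit3, chr19:34583279-34583528, plus strand: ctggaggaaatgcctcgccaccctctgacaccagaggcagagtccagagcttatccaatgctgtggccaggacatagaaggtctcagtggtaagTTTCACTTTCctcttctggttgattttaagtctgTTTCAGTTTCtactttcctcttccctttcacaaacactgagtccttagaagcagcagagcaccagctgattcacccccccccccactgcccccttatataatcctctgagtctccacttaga

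Ifit1 and Ifit3 each carried 2 ISRE matches, and the other 3 promoters carried 1. In Ifit1 these lie 104 to 95 and 85 to 76 bases before the start, and in Ifit3 156 to 147 and 122 to 113 bases before it. Oas3 has its match closest to the start, at 75 to 66 bases. The 5 genes did not share a direction with fructose: Ifi205 and Rsad2 were higher with fructose in both genotypes, while Oas3, Ifit1 and Ifit3 were lower. Genes with an ISRE had a median KO minus WT difference of -0.48 in control medium (12 of 13 below 0). Genes with a listed promoter and no ISRE had -0.36 (23 of 23 below 0). Of all detected genes, 52% lay below 0 in this comparison.

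Nearly all interferon-stimulated genes were lower in KO than in WT hepatocytes in control medium. Of the 46 genes, 45 had a difference below 0, while 52% of all 10720 detected genes did. The median log2 difference was -0.38, against -0.01 over all detected genes. At least 2-fold lower were 6 genes (0.196% of all detected genes), namely Ifi204, Ifi205, Ifi209, Ifit2, Cd274 and Tnfsf10, and none was 2-fold higher (0.0373% of all). Ifi209 lay below background in KO and reached only "at least 1.77-fold" against that level. At the smaller size of 1.5-fold, 14 genes were lower (1.1% of all) and none was higher (0.476% of all). The single gene above 0 was Trim30a, at 0.10 (48% of all detected genes lay above 0). In a mixed preparation, fewer cells of a type and less RNA per cell cannot be told apart.

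**Figure D1:**
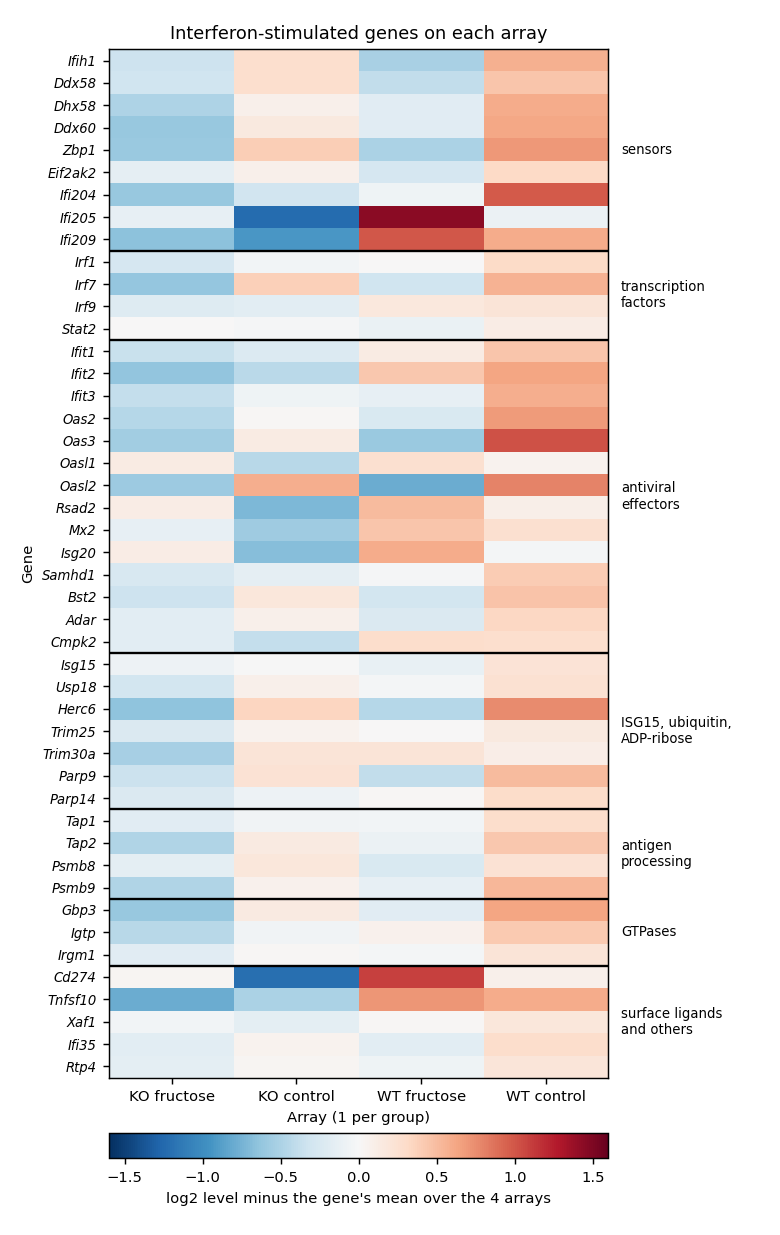
Heat map of the 46 interferon-stimulated genes (rows, grouped by role) on the 4 arrays (columns), coloured by the log2 level minus the gene's mean over the 4 arrays. WT control is the reddest column, the highest array for 36 genes, and KO fructose the bluest, the lowest array for 27 genes; Ifi205 and Cd274 are highest in WT fructose and lowest in KO control.

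In fructose medium the genes were again mostly lower in KO, by less. A difference below 0 was seen for 36 of the 46 genes, while 47.5% of all 10688 detected genes had one, and the median was -0.25 against 0.01 over all. At least 2-fold lower were 5 genes (0.739% of all), Ifi205, Ifi209, Ifit2, Cd274 and Tnfsf10, and none was 2-fold higher (0.543% of all). Ifi204 was 1.46-fold lower here, against 2.45-fold in control medium. At 1.5-fold, 6 genes were lower (2.86% of all), the added one being Trim30a, which lay below background in KO fructose and reached at least 1.26-fold. The 10 genes above 0 were Ifih1, Ddx58, Eif2ak2, Stat2, Oas3, Oasl2, Adar, Isg15, Parp9 and Psmb8, with differences of up to 0.21. In this medium 35 of the 46 genes had a smaller absolute difference than in control medium, against 4022 of 10358 among all genes detected in both. These comparisons use separate arrays, and across the 46 genes their differences had a Pearson correlation of 0.75 (Spearman 0.65), against 0.35 over all genes. The arrays were normalised together, and genes are not independent replicates.

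**Figure D2:**
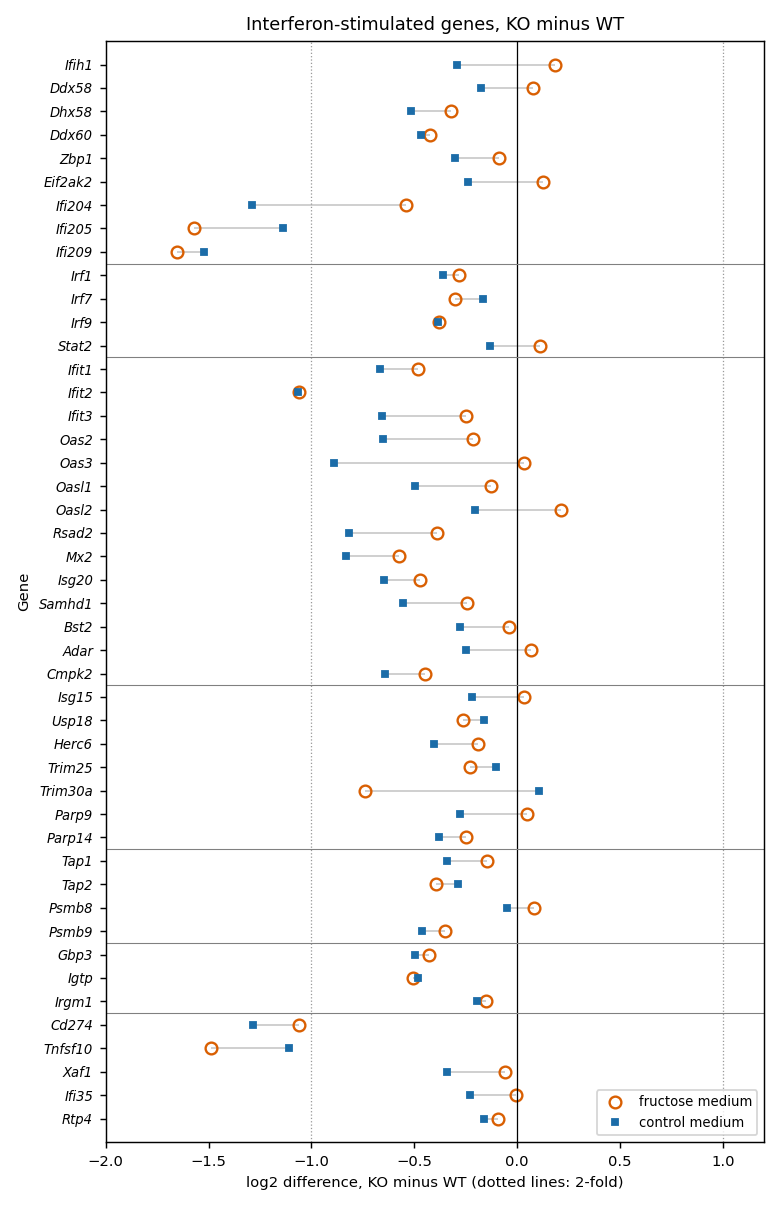
Log2 difference, KO minus WT, of each of the 46 genes in fructose medium (open circles) and control medium (squares), grouped by role as in the heat map; dotted lines mark 2-fold. All squares except that of Trim30a lie left of 0, and most circles lie nearer to 0 than their squares.

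With fructose, most interferon-stimulated genes were lower in WT hepatocytes, and a small set was higher. Lower levels were seen for 36 of 46 genes (52.5% of all 10814 detected genes lay below 0), and the median difference was -0.35 against -0.03 over all. At least 2-fold lower were 6 genes (3.01% of all), namely Ifih1, Zbp1, Ifi204, Oas3, Oasl2 and Herc6. The largest such difference was that of Oas3, 3.06-fold lower. At least 2-fold higher were 2 genes (3.1% of all), Ifi205 and Cd274. At 1.5-fold, 17 genes were lower (10.8% of all) and 3 higher (9.46% of all). This comparison shares the WT control array with the KO against WT comparison in control medium, and that array was the highest for 36 of the 46 genes.

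In KO hepatocytes most of the genes were again lower with fructose. The absolute difference was smaller in KO than in WT for 32 of the 45 genes detected in both comparisons, against 6651 of 10516 among all genes. A difference below 0 was found for 36 of the 45 detected genes, against 50.6% of all 10752, with a median of -0.28 against 0.00. Only Irf7 and Oasl2 were at least 2-fold lower (1.18% of all), and Ifi205 and Cd274 at least 2-fold higher (1.68% of all). At 1.5-fold, 11 genes were lower (5.75% of all) and 4 higher (6.11% of all). The fructose comparisons in KO and WT use separate arrays. Across the 45 genes detected in both, 34 were below 0 in both genotypes, 7 above 0 in both and 4 of opposite sign, while of all 10516 genes 4289 were below 0 in both, 3951 above 0 in both and 2276 of opposite sign. The Pearson correlation was 0.88 (Spearman 0.81), against 0.83 over all genes. Of the 36 genes that were lower with fructose in WT, 31 had a smaller absolute difference in KO, against 3721 of 5557 among all genes lower in WT.

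**Figure D3:**
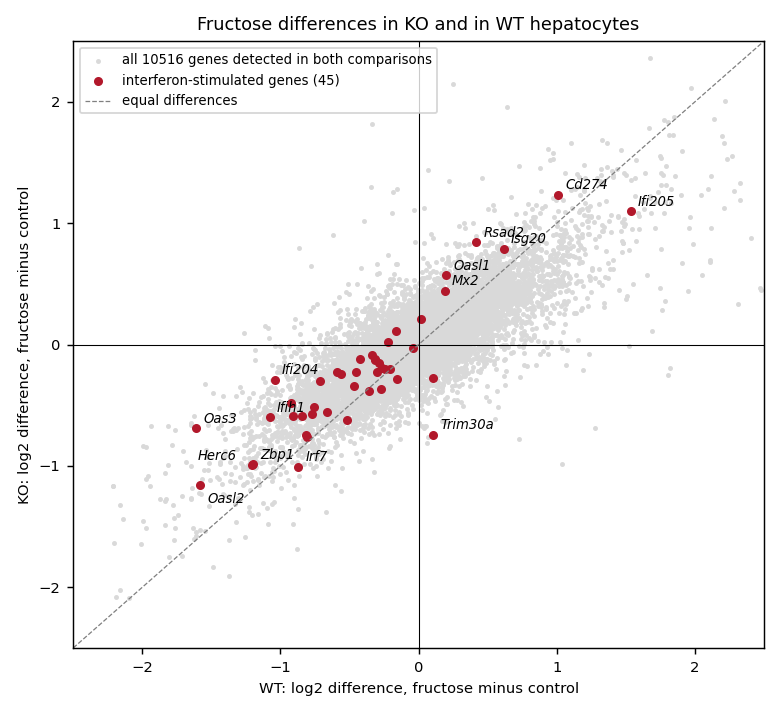
Log2 difference, fructose minus control, in WT (x axis) and KO hepatocytes (y axis) for 45 interferon-stimulated genes (red) and all 10516 genes detected in both comparisons (grey); the dashed line marks equal differences. Most red points lie below 0 on both axes and above the dashed line, and Ifi205, Cd274, Isg20, Rsad2, Oasl1 and Mx2 lie above 0 on both.

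The fructose difference of KO hepatocytes less that of WT hepatocytes, which equals the genotype difference in fructose medium minus that in control medium, had a median of 0.20 over the 46 genes and 0.03 over all 11050 detected genes. It lay above 0 for 37 of the 46 (55% of all). This value uses all 4 arrays and contains WT control, the highest array for 36 of the 46 genes, with a plus sign. It is therefore not separate from the comparisons above that use WT control. No gene reached 2-fold in either direction (0.443% of all were higher and 0.588% lower). At 1.5-fold, Oas3 (0.92) and Ifi204 (0.75) were higher (2.86% of all) and Trim30a (-0.85) was lower (2.6% of all). Trim30a lay near background on all arrays and below it in KO fructose, and with values raised to background its difference was -0.44, short of 1.5-fold. It had 4.36 in KO fructose and 5.10 in KO control, against 5.10 in WT fructose and 4.99 in WT control.

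**Figure D4:**
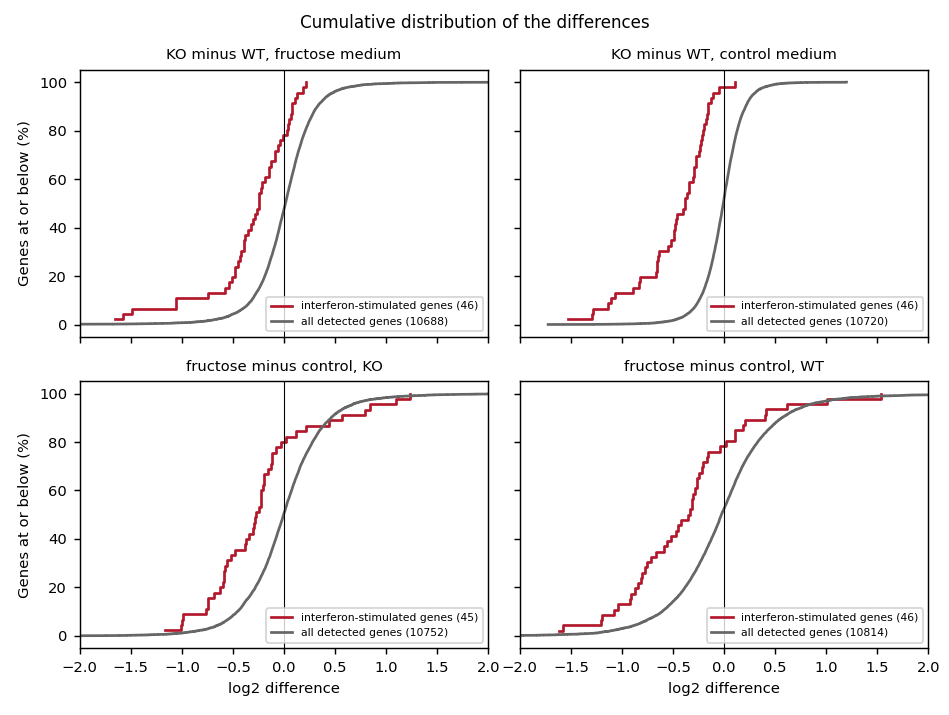
Cumulative share of genes (y axis, %) at or below each log2 difference (x axis) for the detected interferon-stimulated genes (red) and all detected genes (grey) in the 4 comparisons. The red curve lies left of the grey one over most of its length in every panel, and in the fructose panels it crosses to the right at the upper end, where Ifi205 and Cd274 lie.

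Among the sensors, the RNA helicases were lower with fructose in both genotypes. Ifih1, which encodes MDA5, the sensor of long double-stranded RNA, had log2 levels of 9.37 in KO fructose and 9.97 in KO control, against 9.19 in WT fructose and 10.27 in WT control. It was 1.52-fold lower with fructose in KO and 2.11-fold lower in WT. Ddx58, which encodes RIG-I, had 7.58 in KO fructose, 8.16 in KO control, 7.50 in WT fructose and 8.34 in WT control. Both helicases were high on the control arrays and low on the fructose arrays, with the genotypes close together. Dhx58, which encodes LGP2, a regulator of both helicases, had 8.06 in KO fructose, 8.63 in KO control, 8.38 in WT fructose and 9.15 in WT control. Ddx60, a related helicase-like protein gene, had 6.22 in KO fructose, 6.98 in KO control, 6.64 in WT fructose and 7.45 in WT control. These last genes were lower in KO than in WT in each medium as well as lower with fructose, so KO fructose was their lowest array.

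Zbp1, a sensor of Z-form nucleic acid that can start necroptosis, had log2 levels of 9.26 in KO fructose, 10.24 in KO control, 9.35 in WT fructose and 10.55 in WT control. The difference followed the medium, 1.98-fold lower with fructose in KO and 2.29-fold in WT, while the genotypes differed by 1.23-fold at most. Eif2ak2, the RNA-activated kinase PKR that phosphorylates the initiation factor eIF2, had 9.13 in KO fructose, 9.35 in KO control, 9.001 in WT fructose and 9.59 in WT control, a spread of 0.59 over the arrays.

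The HIN200 family members Ifi204, Ifi205 and Ifi209, DNA-binding proteins of the mouse interferon response, showed the largest genotype differences of the sensors. Ifi204 had log2 levels of 6.12 in KO fructose, 6.41 in KO control, 6.66 in WT fructose and 7.70 in WT control. Ifi205 had 6.44 in KO fructose, 5.34 in KO control, 8.01 in WT fructose and 6.47 in WT control. Ifi209 had 4.34 in KO fructose and 4.06 in KO control, both below background, against 5.99 in WT fructose and 5.59 in WT control. All were lower in KO in each medium, but their relation to fructose differed: Ifi205 was 2.14-fold higher with fructose in KO and 2.90-fold in WT, whereas Ifi204 was 1.22-fold lower in KO and 2.06-fold lower in WT. These genes lie in a family of similar sequences whose probes can be shared, so their values are uncertain. With a probe set shared with Ifi211 averaged in, the Ifi204 fructose difference was 0.01 in KO and -0.65 in WT.

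Transcription factors of the response differed little between genotypes, and Irf7 alone reached 1.5-fold with the medium. Irf7, the factor that amplifies interferon alpha transcription, had log2 levels of 9.80 in KO fructose, 10.80 in KO control, 10.10 in WT fructose and 10.97 in WT control. It was 2.01-fold lower with fructose in KO and 1.83-fold lower in WT. Irf9 and Stat2, which encode members of the ISRE-binding complex, had fructose differences of -0.03 and 0.02 in KO and of -0.04 and -0.22 in WT. Irf1, a factor induced strongly by interferon gamma, was lower in KO by a log2 difference of -0.28 in fructose medium and -0.36 in control medium.

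Antiviral effectors made up the role group with the largest median genotype difference in control medium, -0.65. There 14 of 14 measured genes were below 0 (52% of all detected genes), and 9 were at least 1.5-fold lower in KO (1.1% of all). In fructose medium 11 of 14 were below 0 (47.5% of all) and the median was -0.25. Only Ifit2 was at least 1.5-fold lower there (2.86% of all). For all 14 genes the signed value of the fructose difference in KO, less the one in WT, lay above 0 (55% of all detected genes), though for Ifit2 it rounds to 0.00. For genes lower with fructose, such as Oas3 (-0.69 in KO and -1.61 in WT), this is a smaller difference in KO. The signed value also contains the WT control array, so it is not separate from the genotype difference in control medium. Ifit1, Ifit2 and Ifit3 encode tetratricopeptide proteins that bind foreign RNA. Ifit1 had log2 levels of 9.52 in KO fructose, 9.65 in KO control, 10.00 in WT fructose and 10.32 in WT control. Ifit2 had 5.65 in KO fructose, 5.85 in KO control, 6.71 in WT fructose and 6.92 in WT control, 2.09-fold lower in KO in each medium. Ifit3 had 6.10 in KO fructose, 6.40 in KO control, 6.35 in WT fructose and 7.06 in WT control. For Ifit1 and Ifit2 both KO arrays lay below both WT arrays, whereas for Ifit3 KO control lay slightly above WT fructose.

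Oligoadenylate synthetases make a messenger that activates the nuclease RNase L. Oas3 had log2 levels of 6.83 in KO fructose, 7.52 in KO control, 6.80 in WT fructose and 8.41 in WT control. Oas2 had 5.22 in KO fructose, 5.70 in KO control, 5.43 in WT fructose and 6.35 in WT control. Oasl2, a synthetase-like protein gene, had 9.003 in KO fructose, 10.16 in KO control, 8.79 in WT fructose and 10.37 in WT control. In control medium the KO level of Oas3 was lower by 1.85-fold, and it differed by 0.03 on the log2 scale in fructose medium, where both genotypes were low. Oasl2 followed the medium, 2.24-fold lower with fructose in KO and 2.99-fold lower in WT. Oasl1, whose product restrains IRF7 translation in the mouse, ran the other way, with 10.04 in KO fructose, 9.47 in KO control, 10.16 in WT fructose and 9.96 in WT control.

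Rsad2 (viperin, which makes a chain-terminating nucleotide) and its chromosomal neighbour Cmpk2, a mitochondrial nucleotide kinase gene, were lowest in KO control. Rsad2 had log2 levels of 10.92 in KO fructose, 10.07 in KO control, 11.31 in WT fructose and 10.89 in WT control. Cmpk2 had 9.47 in KO fructose, 9.26 in KO control, 9.92 in WT fructose and 9.90 in WT control. Rsad2 was higher with fructose, 1.80-fold in KO and 1.33-fold in WT, while Cmpk2 differed by 1.16-fold in KO and 1.01-fold in WT. Isg20, an exonuclease gene, had 8.24 in KO fructose, 7.45 in KO control, 8.71 in WT fructose and 8.09 in WT control. Mx2, a dynamin-like GTPase gene, had 7.44 in KO fructose, 7.00 in KO control, 8.02 in WT fructose and 7.83 in WT control. Both were higher with fructose and lower in KO.

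Bst2 (tetherin, which holds budding virions at the cell surface) had log2 levels of 11.17 in KO fructose, 11.68 in KO control, 11.21 in WT fructose and 11.96 in WT control. It was lower with fructose, 1.43-fold in KO and 1.69-fold in WT, and the genotypes were within 1.21-fold of each other. Samhd1, which degrades nucleotide precursors, was 1.18-fold lower in KO in fructose medium and 1.47-fold lower in control medium. Adar, the RNA-editing enzyme gene, differed between genotypes by 0.07 in fructose medium and -0.25 in control medium.

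Genes of the ISG15 system, its ligases and the ADP-ribose enzymes had median KO minus WT differences of -0.23 in fructose medium and -0.22 in control medium, and median fructose differences of -0.37 in KO and -0.28 in WT. Isg15, the ubiquitin-like modifier itself, had log2 levels of 10.84 in KO fructose, 10.92 in KO control, 10.80 in WT fructose and 11.14 in WT control, a spread of 0.34. Herc6, the main ISG15 ligase in the mouse, had 8.56 in KO fructose, 9.55 in KO control, 8.75 in WT fructose and 9.96 in WT control, and was 1.99-fold lower with fructose in KO and 2.31-fold lower in WT. Usp18, which removes ISG15 and restrains the interferon receptor, had fructose differences of -0.37 in KO and -0.27 in WT. The ADP-ribosyltransferase family gene Parp9 had 8.70 in KO fructose, 9.29 in KO control, 8.65 in WT fructose and 9.57 in WT control, and was lower with fructose in each genotype. Parp14, of the same family, and Trim25, a ubiquitin ligase that acts on RIG-I, stayed within 1.5-fold in all 4 comparisons.

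Antigen-processing genes were lower with fructose in both genotypes, 4 of 4 below 0 each time, with medians of -0.45 in KO and -0.49 in WT. Of all detected genes, 50.6% in KO and 52.5% in WT lay below 0. Tap2, a subunit of the peptide transporter into the endoplasmic reticulum, had log2 levels of 6.02 in KO fructose, 6.65 in KO control, 6.41 in WT fructose and 6.94 in WT control. Psmb9, an immunoproteasome subunit gene, had 5.91 in KO fructose, 6.47 in KO control, 6.26 in WT fructose and 6.93 in WT control. For both genes KO fructose was the lowest array and WT control the highest. Tap1, the partner of Tap2, and Psmb8 stayed within 1.5-fold. Of the interferon-inducible GTPases, which attack vacuoles holding intracellular microbes, Gbp3 had 8.53 in KO fructose, 9.28 in KO control, 8.96 in WT fructose and 9.77 in WT control, lower with fructose by 1.68-fold in KO and 1.76-fold in WT. Igtp and Irgm1 were lower in KO in each medium, by at most 1.42-fold.

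Cd274 and Tnfsf10, which encode the surface ligands PD-L1 and TRAIL, had genotype differences that persisted in both media. Cd274 had log2 levels of 8.22 in KO fructose, 6.99 in KO control, 9.28 in WT fructose and 8.27 in WT control. It was 2.09-fold lower in KO in fructose medium and 2.44-fold lower in control medium, and higher with fructose by 2.35-fold in KO and 2.02-fold in WT, so KO fructose and WT control were nearly level. Tnfsf10 had 5.32 in KO fructose, 5.60 in KO control, 6.81 in WT fructose and 6.71 in WT control, with both KO arrays below both WT arrays. It was 2.81-fold lower in KO in fructose medium and 2.16-fold lower in control medium, and differed with fructose by 1.21-fold at most. Xaf1, Ifi35 and Rtp4 stayed within 1.5-fold in all comparisons.

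The 7 genes with higher levels with fructose in both genotypes were Ifi205, Cd274, Rsad2, Isg20, Mx2, Oasl1 and Cmpk2. They are 7 of the 45 detected in both comparisons, a lower share than the 3951 of 10516 among all genes. Cmpk2 was higher by only 0.02 in WT. Of these, 5 are antiviral effectors, while Ifi205 is among the sensors and Cd274 among the surface ligands. All 7 were lower in KO in each medium, as were 35 of all 46 genes, against 3038 of 10358 among all genes detected in both media. These directions together place the lowest level of each in KO control and the highest in WT fructose, so that order is no further result.

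Upstream of these genes, most of the interferon genes themselves lay below background. Of 19 ligand genes measured, 7 were above background on any array, against 11050 of 22180 genes in all. These 7 were all members of the interferon alpha and lambda families with similar sequences. None of the 7 differed by 1.5-fold in any of the 4 comparisons. Of all detected genes, 0.476% to 10.8% did so in a given direction, shares at which few of 7 genes would be named. The brightest, Ifna4, had log2 levels of 6.58 in KO fructose, 6.42 in KO control, 6.53 in WT fructose and 6.47 in WT control. Ifnb1 and Ifng lay below background on all 4 arrays. Among 8 detected receptor and kinase genes, Tyk2, a kinase bound to the type I receptor, was lower with fructose by a log2 difference of -0.50 in KO and -0.97 in WT, and Ifngr1, an interferon gamma receptor chain gene, was higher in KO in fructose medium by 0.63. The type I receptor genes differed between genotypes by -0.19 (Ifnar1) and -0.07 (Ifnar2) in fructose medium and by 0.09 and -0.27 in control medium. In the pathway that induces interferon, Tlr3, the endosomal RNA sensor gene, was lower in KO by -0.45 in fructose medium and -0.82 in control medium. Its adaptor gene Ticam1 was higher with fructose by 0.82 in KO and 0.84 in WT.

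A second list of interferon-stimulated genes outside the 46 ran alike. In control medium 49 of 51 detected genes were below 0 in KO minus WT (52% of all detected genes), with a median of -0.38. At least 1.5-fold lower were 12 (1.1% of all). In fructose medium 37 of 51 were below 0 (47.5% of all), with a median of -0.18. At least 1.5-fold lower were 5 (2.86% of all). With fructose, 36 of 50 in KO (50.6% of all) and 40 of 51 in WT (52.5% of all) were below 0. The medians were -0.17 and -0.43. Oas1g, a further oligoadenylate synthetase gene, had log2 levels of 6.12 in KO fructose, 7.20 in KO control, 6.28 in WT fructose and 8.24 in WT control, highest in WT control and lowest in KO fructose. Slfn2, a schlafen family gene, had 6.49 in KO fructose, 5.95 in KO control, 7.26 in WT fructose and 6.88 in WT control. The chemokine genes Cxcl10 and Cxcl11 were lower in KO by -0.77 and -0.46 in fructose medium and by -1.14 and -1.21 in control medium.

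Kupffer cell, macrophage and sinusoidal endothelial markers were mostly lower in KO than in WT. Of all detected genes, 47.5% in fructose medium and 52% in control medium lay below 0 in this comparison. Of 21 Kupffer cell and macrophage markers, 17 were above background on at least 1 array, and 15 of 17 in fructose medium and 15 of 16 in control medium were below 0 in KO minus WT, with medians of -0.45 and -0.46. Their summed linear level was 3268 in KO fructose and 3083 in KO control, against 3041 in WT fructose and 3422 in WT control, a sum to which Cd68, with differences of 0.44 and 0.08, contributes much. Timd4 was lower in KO by -1.01 in fructose medium and -0.81 in control medium, Marco by -0.84 and -0.72, and Clec4f by -0.45 and -0.18, while Vsig4, C1qc, Cd163 and Tyrobp were below background throughout. Of 14 sinusoidal endothelial markers, 9 of 11 detected in fructose medium and 10 of 10 in control medium were below 0, with medians of -0.35 and -0.43, and Stab2, Clec4g and Tek were below background. Their summed level was 782 in KO fructose and 820 in KO control, against 1024 in WT fructose and 1129 in WT control. Hepatocyte markers had medians of 0.08 in fructose medium and 0.00 in control medium. Stellate cell markers had a median of 0.03 in fructose medium (4 detected) and of -0.29 in control medium (3 detected). The part of cells other than hepatocytes in the genotype difference was not tested.

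Median fructose differences of the Kupffer cell and endothelial lists were smaller in size than their median genotype differences. Kupffer cell and macrophage markers had medians of 0.10 in KO and 0.20 in WT. Endothelial markers had -0.03 and -0.10, where the interferon-stimulated genes had -0.28 and -0.35. Single markers differed more. Kupffer cell and macrophage markers ran from -0.78 (Cd5l) to 0.47 (Lyz2) in KO and from -0.91 (Cd5l) to 0.50 (Adgre1) in WT. Hepatocyte markers had medians of 0.08 in KO and 0.02 in WT. They ran from -0.50 (Hnf4a) to 2.01 (Tat) in KO and from -0.75 to 2.22 in WT for the same genes. All 3 measured B cell markers and all 5 neutrophil markers were below background on every array, as were 8 of 10 T and NK cell markers and 5 of 6 dendritic cell markers. Of 9 stellate cell markers 4 were above background on some array, and of 5 cholangiocyte markers 1, Sox9.

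**Figure D5:**
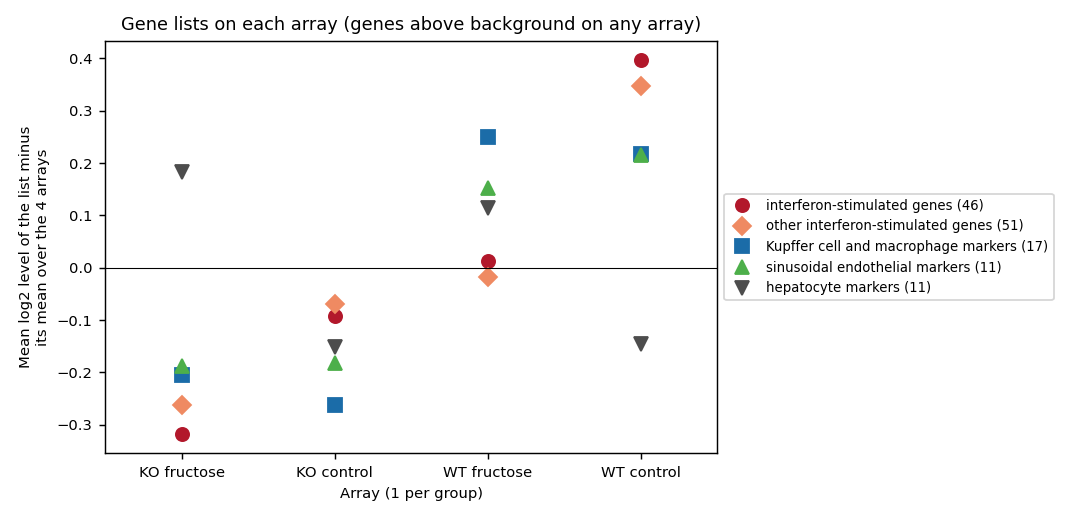
Mean log2 level of 5 gene lists on each array, minus the list's mean over the 4 arrays, for genes above background on any array (numbers in the legend). The interferon-stimulated genes are lowest in KO fructose and highest in WT control, and both KO arrays lie below both WT arrays. The Kupffer cell and endothelial markers are also lower on both KO arrays than on both WT arrays, with a smaller step between the media.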

How the data were processed

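Expression was measured on 4 one-colour whole-transcript arrays, 1 per group, from 400 ng of total RNA each, per the labels. The deposited values are log2 levels per probe set made by the authors with RMA (robust multi-array averaging) under R 3.4.0, per the submitters' processing notes. RMA makes the distributions of the arrays alike, so a shift shared by all genes cannot be seen. The annotation version and genome build behind the probe sets were not given in the sources used here.

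Of 41345 probe sets, 23521 had 1 gene symbol in the platform table, 1814 had several and 16010 were unnamed here. By Entrez number, 23328 were matched to RefSeq symbols (GRCm38.p6). Probe sets of a gene were averaged on the log2 scale (1 of the 46 genes, Ifi35, had more than 1). Background was the 95th percentile of the mean level of 1105 olfactory receptor genes, and a gene was detected in a comparison when above it on at least 1 array compared. Differences of log2 values were computed with Python 3.11.15 and pandas 2.3.3 and counted at 2-fold and 1.5-fold, without a test, since there are no replicates. Precision is limited by having 1 array per group.

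Levels on all 4 arrays are given for the 28 genes that differ by at least 1.5-fold in at least 1 pairwise comparison with values raised to background, and for Isg15, Oasl1 and Trim30a, chosen after their values were seen. Of other lists, up to 4 genes with large differences are named, and further ones were chosen after their values were seen. The members and lists were chosen with earlier results of these data known. Alternatives covered array scaling, filters on dim genes, probe set choice, the fold threshold, the summary and the membership of the list.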

Additional observations from a re-analysis of the deposited data

Results flagged for a closer look

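The probe set shared by Gbp2 and Gbp2b lay outside the comparisons because it names several genes, and it carried a signal well above background. It had log2 levels of 8.06 in KO fructose, 9.08 in KO control, 8.67 in WT fructose and 9.73 in WT control. KO minus WT was -0.607 in fructose medium and -0.654 in control medium, and fructose minus control was -1.02 in KO and -1.06 in WT. Which of the guanylate-binding protein genes gave the signal cannot be read from this probe set. The probe set shared by Dtx3l and Parp9 stayed within 1.5-fold, with 8.43 in KO fructose, 8.75 in KO control, 8.58 in WT fructose and 9.16 in WT control.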

How the results depend on the processing

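No paired analysis was possible because each group has 1 array, and no array could be left out. All medians kept their sign under the 11 alternatives that apply to them: -0.33 to -0.24 for KO minus WT in fructose medium, -0.49 to -0.36 in control medium, -0.29 to -0.24 for fructose in KO, -0.39 to -0.32 in WT and 0.16 to 0.20 for the difference of effects. The control-medium median moved most, to -0.49 with the mean. Of the counts, 2-fold lower in KO went to 3 in both media without Ifi204, Ifi205 and Ifi209 (main 5 in fructose and 6 in control medium). At 3-fold 1 gene, Ifi209, was lower in KO in fructose medium and 0 in control medium, where 14 were lower at 1.5-fold. Ifi209 lay below background in KO fructose and reached only at least 2.33-fold against that level. For fructose in KO, 11 genes were lower and 4 higher at 1.5-fold, 0 and 0 at 3-fold, and 1 was higher without the most different gene or without the 3 Ifi genes. For fructose in WT, 17 were lower at 1.5-fold, 1 was lower and 0 higher at 3-fold, and 1 was higher without the 3 Ifi genes. For the difference of effects, 1 was lower (Trim30a) and 2 higher at 1.5-fold. These moves follow from the thresholds and from fewer genes. Among recomputed differences of single genes, 561 stayed and 9 moved, those of Ifi204, Ifi209 and Parp9. Raising values to background leaves genes above it on every array unchanged, so those differences could not move. Median centring and repeated quantile normalization left the median of all genes within 0.03 of 0. Both align the arrays by design, so this is no check of the results. With 1 array per group, the spread between samples is unknown.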

Other observations

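Ifi30, a lysosomal thiol reductase gene induced by interferon gamma, departed from the other interferon-stimulated genes, with log2 levels of 8.003 in KO fructose, 7.53 in KO control, 10.20 in WT fructose and 7.72 in WT control. Its fructose difference was 0.47 in KO and 2.47 in WT. Ptpn2, a phosphatase gene that restrains JAK and STAT signalling, was higher with fructose by 1.11 in KO and 1.17 in WT, the one of 9 detected negative regulators at 2-fold. Ptpn2 had 8.38 in KO fructose, 7.27 in KO control, 8.55 in WT fructose and 7.38 in WT control, so the genotypes were close. Of 10 genes of MHC class I presentation, 7 were lower with fructose in each genotype (50.6% of all detected genes in KO and 52.5% in WT). The medians were -0.25 in KO and -0.22 in WT. KO minus WT had medians of -0.03 in fructose medium and -0.06 in control medium. H2-T23 was lower with fructose by -0.48 in KO and -0.67 in WT, while Tapbpl, a relative of tapasin, was higher by 0.36 and 0.76.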
